A study of Danio rerio with 52 samples.

Results

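Non-fluorescent skin cells of 4-day-old zebrafish larvae were compared 1 h after copper treatment (n = 7 arrays) and in untreated larvae (n = 6 arrays), 13 of the 52 arrays of the series, chosen by their labels. The treated larvae had been kept in 5 µM CuSO4 for 1 h and were collected 1 h later, while the untreated larvae received no copper, and the labels name no mock treatment. Larvae came from transgenic lines that mark mantle cells with alpl:mCherry and, depending on the line, hair cells with pou4f3:GFP or most mantle cells with the ET20 GFP insertion, and the labels do not say which line gave the non-fluorescent cells of a sample. About 50 skins were pooled per sample, dissociated with trypsin and sorted, and 1 ng of RNA was amplified before hybridization. Collections of the same population at 3 h, 5 h and 11 h after copper (n = 4 each), and mCherry+ mantle cells at 1 h after copper (n = 4) and untreated (n = 5), served for comparison. No label ties a replicate to its own clutch or sort, so each p-value reflects only how far these deposited samples scatter, which may be technical.

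The zebrafish lateral line is a set of sense organs in the skin, the neuromasts, in which mechanosensory hair cells sit among support cells, with mantle cells at the edge. Copper in the water kills the hair cells of the lateral line, and new ones form from the remaining neuromast cells. The non-fluorescent sort holds what carries neither reporter, chiefly the surrounding skin: keratinocytes, fibroblasts and other connective tissue cells, nerve sheath cells, blood and immune cells, and neuromast support cells without a reporter. Hair cells can be in it too where the line does not mark them. In such a mixture, fewer cells of a type and less RNA per cell cannot be told apart.

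Keratinocyte genes were bright in the non-fluorescent sort. The ranges of krt4, krt5, pou4f3 and alpl overlapped between it and the mCherry+ sort, at 1 h and untreated, and the levels of the sorts were not tested against each other. The keratinocyte gene krt4 had a lowest, median and highest level of 10.73, 11.61 and 12.54 at 1 h and of 11.67, 12.08 and 12.37 in untreated cells. For krt5, another epidermal keratin gene, these were 8.83, 10.93 and 11.77 at 1 h against 11.03, 11.21 and 11.78 in untreated cells. The hair cell factor gene pou4f3 had 3.84, 3.95 and 4.59 at 1 h against 3.79, 4.04 and 4.34 in untreated cells, and all 3 of these genes overlapped between the groups. The gene behind the mantle reporter, alpl, averaged 6.46 ± 0.47 in non-fluorescent cells at 1 h and 6.30 ± 0.18 in untreated ones (SD, n = 7 and 6), and 6.61 ± 0.52 and 6.82 ± 0.34 in mCherry+ cells at 1 h and untreated (SD, n = 4 and 5). At 3 h its mean in non-fluorescent cells was 7.42 ± 0.33 (SD, n = 4), above both of these mCherry+ means. In mCherry+ cells at 1 h and untreated, krt4 averaged 11.04 ± 0.83 and 10.63 ± 0.89, krt5 11.103 ± 1.06 and 10.48 ± 0.92, and pou4f3 4.18 ± 0.21 and 4.25 ± 0.33. In untreated non-fluorescent cells krt4 averaged 12.05 ± 0.31 and krt5 11.33 ± 0.33, both above the untreated mCherry+ means. Other genes, picked after their values were seen, lay far apart. Untreated non-fluorescent and mCherry+ cells averaged 7.92 ± 0.62 and 3.78 ± 0.46 for fgl1, and 3.99 ± 0.39 and 8.43 ± 0.27 for gsg1l. The cells are called non-fluorescent and mantle cells after their labels. All levels here are log2 signals with the medians of the arrays set equal, and a difference of 1 is a 2-fold change.

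Setting the medians equal was needed because treated and untreated arrays differed in level as deposited. The median of the 19260 tested genes lay between 4.958 and 5.14 in the 1 h arrays and between 4.753 and 4.924 in the untreated arrays, with no overlap, so this shift and the treatment cannot be told apart. Over all genes the median change was -0.0246 once the medians were equal, 0.172 without that step and 0.00313 after quantile normalization. Changes are therefore given relative to the array medians, as differences of 1 h minus untreated ± SE, and a gene was called at a Benjamini-Hochberg adjusted p below 0.05 in limma. Per the series' design text, the copper arrays were also imported separately. Equal medians do not remove an offset in single genes from such a step, so this offset and the treatment cannot be told apart.

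Non-fluorescent cells collected 1 h after copper had higher levels of cdc42ep3, an effector gene of the GTPase Cdc42, of the secreted protein genes angptl7 and adamts8a, of the mesenchymal factor gene twist2 and of the myelin gene mag, and 8 of 38 connective tissue genes were called higher, 4 of them under all 3 scalings. Lower genes included the ubiquitin-like gene ubl3b, which stayed called whichever array was left out, and mbd5 and the metabolic gene bdh1, which did not. The prostaglandin receptor gene ptger3 was also lower, at low signals. Among 19260 genes, 308 were called (1.6%), 204 higher (1.06%) and 104 lower (0.54%). The higher genes had a median change of 1.028 and the lower ones of -0.939, and 111 and 42 of them changed by at least 1 on the log2 scale. At an unadjusted p under 0.05 there were 3480 (18.1%). The arrays of the groups did not overlap for 194 genes in the upward (1.01%) and 145 in the downward direction (0.753%). Under all 3 scalings, 145 were called higher (0.753%) and 66 lower (0.343%). On the deposited values alone the split was 1374 higher and 78 lower. Those values raise every change by the same amount, which favours higher calls and hinders lower ones. For higher genes, a call under all 3 scalings is therefore chiefly a check by quantile normalization. Probe sets of the lower genes were mostly dim: 69 of the 104 lay below the median signal, against 29 of the 204 higher ones. The count depended on single arrays. It was 190, 135, 129, 174, 111 and 119 without untreated replicate 1, 2, 3, 4, 5 or 6, it was 203, 171 and 145 without 1 h replicate 1, 4 or 5, and it was 463 without 1 h replicate 7. With untreated replicates 2 to 4 as the only controls, 1 gene was called, angptl7.

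**Figure D1:**
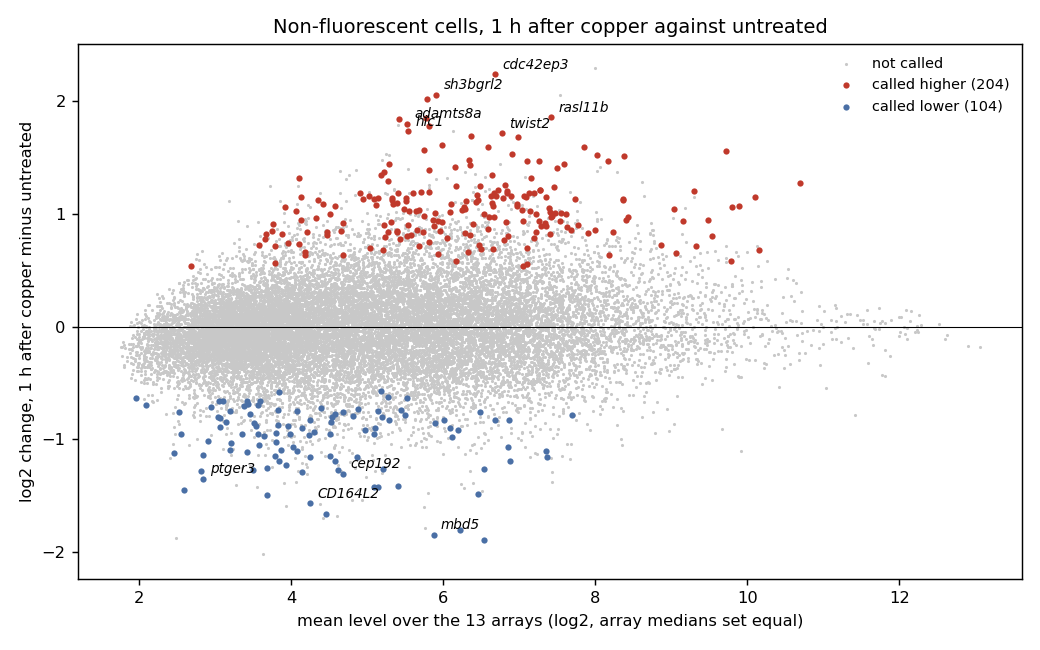
Change of each of 19260 genes in non-fluorescent cells (y axis, log2, 1 h after copper minus untreated) against its mean level over the 13 arrays (x axis, log2, array medians set equal). Red points are the 204 genes called higher, blue points the 104 called lower and grey points the genes not called; the lower genes sit further to the left, among dim probe sets.

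The 12 largest increases are those among genes called under all 3 scalings whose arrays did not overlap, and they are described by what their products do, beginning with secreted and matrix proteins. Angptl7 encodes a secreted angiopoietin-like protein, and its lowest, median and highest levels were 10.19, 10.32 and 10.79 at 1 h against 8.69, 8.88 and 9.08 in untreated cells. Every treated array lay more than 1 above every untreated array, and the change was 1.56 ± 0.14 (adjusted p = 0.000224, limma). It was also called under all 15 alternatives, and with untreated replicates 2 to 4 as controls it was 1.7 (adjusted p = 0.0248, limma). Adamts8a, which encodes a secreted metalloprotease with thrombospondin motifs, had levels of 5.85, 6.28 and 7.05 at 1 h against 4.00, 4.71 and 4.92 in untreated cells. Its groups were apart by more than 0.9, and it was higher by 1.80 ± 0.21 (adjusted p = 0.00143, limma). Thbs1a, the gene of the matrix glycoprotein thrombospondin 1, had 7.81, 8.25 and 9.65 at 1 h against 6.49, 7.05 and 7.33 in untreated cells. Its 3 highest treated arrays stood above 9, well over the other 4, and the change was 1.59 ± 0.30.

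Another set acts in small GTPase signalling and the cytoskeleton. Cdc42ep3 encodes an effector of the GTPase Cdc42 that acts on actin and septins. Its levels were 7.12, 7.79 and 8.39 at 1 h against 4.90, 5.46 and 5.92 in untreated cells, a change of 2.24 ± 0.23 (adjusted p = 0.000538, limma). This was the largest increase named, and the gap between the groups exceeded 1. Rasl11b, a Ras-like GTPase gene, had 7.74, 8.23 and 8.98 at 1 h against 5.83, 6.32 and 7.20 in untreated cells, and was higher by 1.86 ± 0.27. Tppp3, whose product promotes the assembly of tubulin, had 5.98, 6.93 and 7.34 at 1 h against 4.25, 5.26 and 5.70 in untreated cells, and was higher by 1.61 ± 0.28. The groups of both genes lay close to each other without touching. Sh3bgrl2, a gene of the SH3-binding glutamic acid-rich family, had 5.74, 6.93 and 7.70 at 1 h against 4.26, 4.81 and 5.33 in untreated cells. Its treated arrays were widely spread, and the change was 2.06 ± 0.31.

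Transcription factor genes and a myelin gene made up the rest of the largest increases. Twist2 encodes a basic helix-loop-helix factor of dermal and other mesenchymal cells. It had levels of 6.69, 7.66 and 8.73 at 1 h against 5.03, 5.90 and 6.65 in untreated cells, and was higher by 1.72 ± 0.32, with the nearest arrays of the groups almost level. Hic1, a transcriptional repressor that in mouse marks mesenchymal progenitors, had 5.50, 6.56 and 7.32 at 1 h against 3.50, 4.71 and 5.16 in untreated cells, a change of 1.73 ± 0.34. Eve1, an even-skipped type homeobox gene, had 6.49, 7.31 and 8.28 at 1 h against 3.92, 6.03 and 6.35 in untreated cells, a change of 1.60 ± 0.35. Its lowest untreated array, replicate 4, stood far below the other 5.

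Mag encodes the myelin-associated glycoprotein of myelinating glia. Its levels were 6.90, 7.88 and 8.57 at 1 h against 5.04, 6.31 and 6.56 in untreated cells, and it was higher by 1.68 ± 0.30. Myrf, the myelin regulatory factor gene, had 6.44, 6.98 and 8.07 at 1 h against 4.71, 5.67 and 5.85 in untreated cells, a change of 1.69 ± 0.26. No treated array of either gene was as low as any untreated array, as the rule for naming required. Of the 12 largest increases, 10 stayed called whichever single array was left out. Hic1 lost its call without untreated replicate 5 or 6, and eve1 without untreated replicate 1, 2, 5 or 6 or 1 h replicate 1, 4, 5 or 6.

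**Figure D2:**
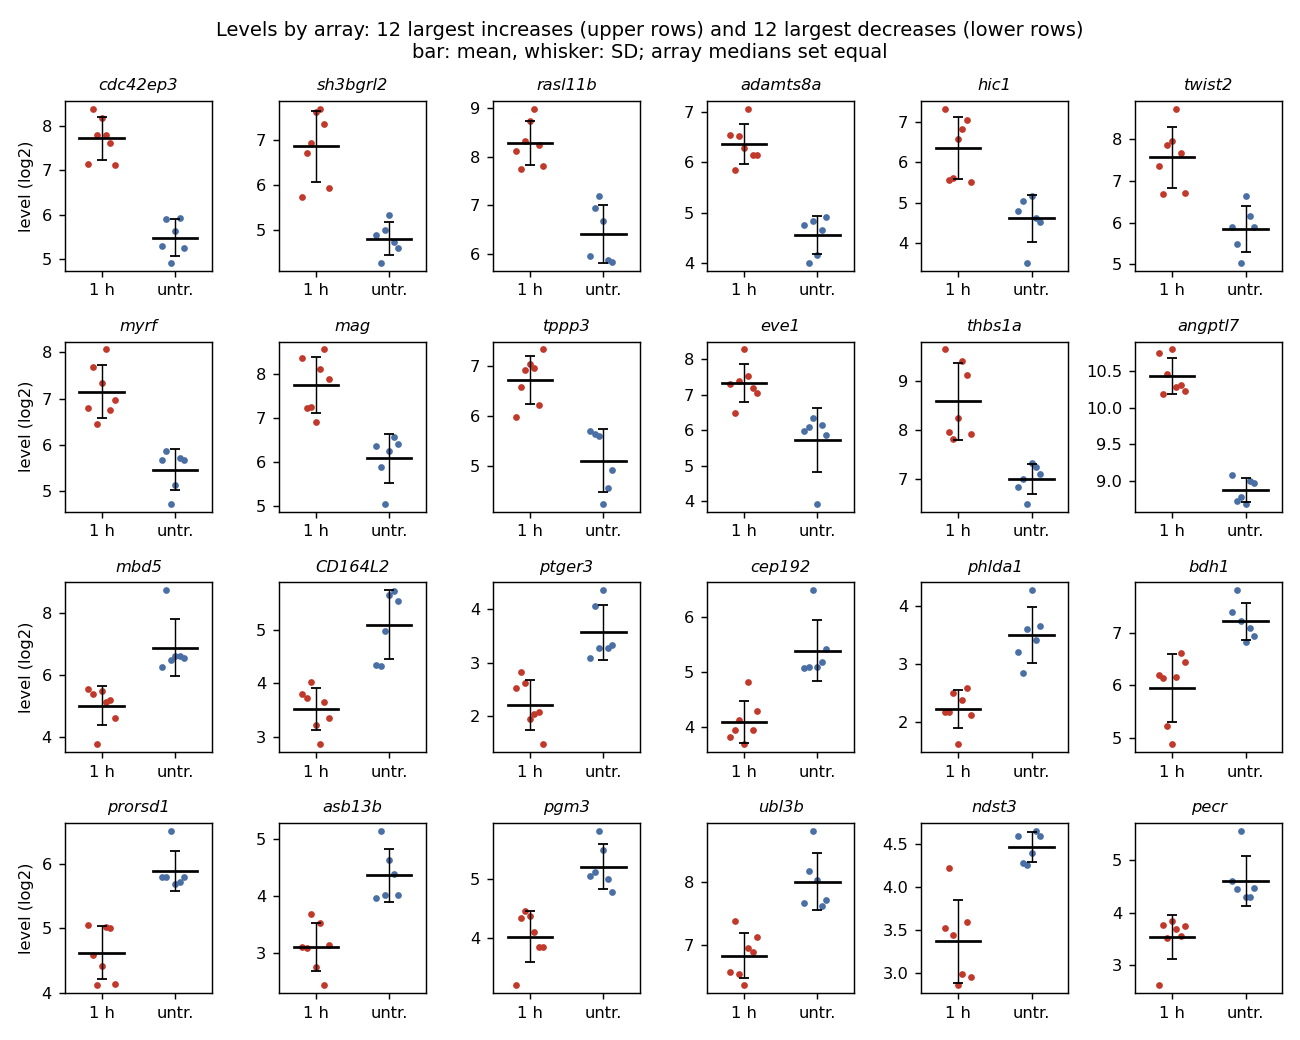
Level of each gene in each array (y axes, log2 with array medians set equal) for the 12 largest increases in the upper rows and the 12 largest decreases in the lower rows, with the 7 arrays at 1 h after copper (red) left of the 6 untreated arrays (blue). Bars are means and whiskers SDs. The groups do not overlap for any of the 24 genes, which was a condition for naming them. Single untreated arrays stand far out for mbd5, cep192, prorsd1, pecr and eve1, and 1 h replicate 1 does so for pecr.

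The 12 largest decreases were of mixed function, and several had low signals. Ptger3, the gene of a prostaglandin E receptor, had a lowest, median and highest level of 1.47, 2.08 and 2.82 at 1 h against 3.08, 3.31 and 4.36 in untreated cells, a change of -1.35 ± 0.25. Phlda1, a gene with a pleckstrin homology-like domain, had 1.61, 2.17 and 2.59 at 1 h against 2.84, 3.51 and 4.28 in untreated cells, a change of -1.28 ± 0.22. Both signals lay near the lower end of what the arrays recorded. CD164L2, a CD164-like sialomucin gene, had 2.86, 3.65 and 4.03 at 1 h against 4.33, 5.25 and 5.72 in untreated cells, a change of -1.57 ± 0.26.

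Bdh1, pgm3, pecr and ndst3 encode enzymes, and of these bdh1 alone had a mean level above the median of all genes. Bdh1, which encodes a mitochondrial dehydrogenase of ketone bodies, had 4.88, 6.16 and 6.62 at 1 h against 6.82, 7.17 and 7.81 in untreated cells, a change of -1.27 ± 0.27. Pgm3, an enzyme gene of UDP-N-acetylglucosamine synthesis, had 3.19, 4.1 and 4.46 at 1 h against 4.79, 5.09 and 5.83 in untreated cells, a change of -1.2 ± 0.22. Pecr, a peroxisomal reductase gene of fatty acid metabolism, had 2.63, 3.70 and 3.84 at 1 h against 4.30, 4.45 and 5.55 in untreated cells, a change of -1.07 ± 0.23. The heparan sulfate sulfotransferase gene ndst3 changed by -1.09 ± 0.20. Each of these 4 genes was lower in every treated array than in any untreated one, as the rule for naming required.

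Mbd5, which encodes a methyl-CpG-binding domain protein, had the largest decrease named. Its levels were 3.77, 5.21 and 5.54 at 1 h against 6.26, 6.58 and 8.72 in untreated cells, a change of -1.85 ± 0.38 (adjusted p = 0.0252, limma). The centrosome gene cep192 had 3.68, 3.95 and 4.81 at 1 h against 5.08, 5.13 and 6.49 in untreated cells, a change of -1.31 ± 0.24. In both, 1 untreated array stood far above the rest, replicate 2 for mbd5 and replicate 3 for cep192. Ubl3b, a gene of a membrane-anchored ubiquitin-like protein, had 6.37, 6.89 and 7.37 at 1 h against 7.62, 7.87 and 8.80 in untreated cells, a change of -1.16 ± 0.21. The remaining ones were prorsd1 at -1.26 ± 0.20 and asb13b, a gene with ankyrin repeats and a SOCS box, at -1.25 ± 0.23. Of these 12 genes, 9 stayed called whichever array was left out. The others were mbd5 (lost without untreated replicate 5), bdh1 (untreated replicate 1, 2, 3, 5 or 6, or 1 h replicate 5) and pecr (untreated replicate 1, 2, 3, 5 or 6, or 1 h replicate 5 or 6).

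Connective tissue genes were the list with the most calls. Of 38 measured genes of fibroblasts and matrix, 8 were called higher (21.1%, against 1.06% of all genes), 0 lower and 30 not called, and 36 had a positive change. Under all 3 scalings 4 were called higher, against 0.753% of all genes. Their median change was 0.543, against -0.0246 over all genes, and it was 0.740 on the deposited values and 0.438 after quantile normalization. Col6a1, a chain of collagen VI, had levels of 9.51, 10.08 and 10.32 at 1 h against 8.88, 8.99 and 9.03 in untreated cells, a change of 0.95 ± 0.15 (adjusted p = 0.0106, limma). Its untreated arrays lay within 0.2 of each other and below every treated array. Efemp2a, a fibulin gene of elastic fibres, was higher by 1.04 ± 0.24, and twist2 is also of this list.

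The other called connective tissue genes were outside the rule for naming and are given after their values were seen. They were fn1b, a fibronectin gene (1.14 ± 0.27), the intermediate filament gene vim (0.94 ± 0.21), the collagen gene col12a1a (0.80 ± 0.16), the mesenchymal factor gene twist1a (0.72 ± 0.17) and postnb, a periostin gene (0.66 ± 0.16). Of these, vim stayed called under all 3 scalings, and the other 4 lost the call after quantile normalization, with adjusted p from 0.0731 (col12a1a) to 0.151 (postnb) in limma. The mean level of the whole list ran from 8.42 to 8.966 at 1 h and from 7.94 to 8.308 in untreated cells. No array of 1 group entered the range of the other. This mean includes the called genes, and the list was not examined without them. On the deposited values the ranges were 8.725 to 9.168 against 7.858 to 8.37. That separation follows from the first, since every treated array had a higher deposited median than any untreated one, so it is no further check. The lysyl oxidase-like gene loxl2a, whose copper-containing product cross-links matrix proteins, had 8.27, 8.76 and 9.18 at 1 h against 6.73, 7.01 and 8.56 in untreated cells. It was higher by 1.52 ± 0.27, and untreated replicate 4 reached into the treated range.

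Tgf-beta and Bmp signalling, which drives matrix production in fibroblasts and patterning in skin, had 5 of 54 genes called higher (9.26%, against 1.06% of all genes) and 0 lower, with a median change of 0.296. Under all 3 scalings 3 were called. Among receptors, bmpr1ba had 5.79, 6.43 and 7.02 at 1 h against 4.39, 5.21 and 5.25 in untreated cells, a change of 1.39 ± 0.23. Tgfbr2a had 5.30, 6.21 and 7.01 at 1 h against 4.77, 4.89 and 5.32 in untreated cells, a change of 1.19 ± 0.26. The first had no overlap between the groups, and for the second the ranges met at 5.3. The ligand gene bmp4 had 7.12, 7.42 and 7.77 at 1 h against 6.51, 6.75 and 7.02 in untreated cells, and was higher by 0.70 ± 0.14. Chosen after their values were seen, the receptor gene tgfbr2b (0.97 ± 0.19) and fsta, which encodes the activin inhibitor follistatin (0.98 ± 0.23), were called too, but not after quantile normalization (adjusted p = 0.0558 and 0.0865, limma).

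Proteases that cut matrix and their inhibitors had 2 of 26 genes called higher (7.69%, against 1.06% of all genes) and 0 lower, with a median change of 0.159. Mmp11b, a stromelysin-type metalloprotease gene, had 6.37, 7.36 and 8.19 at 1 h against 5.64, 6.22 and 6.35 in untreated cells, a change of 1.16 ± 0.27. Htra1a, a secreted serine protease gene, was higher by 0.77 ± 0.18. The wound proteases mmp9 and mmp13a were not called, at 0.92 ± 0.50 (adjusted p = 0.339, limma) and 0.44 ± 0.57 (adjusted p = 0.726, limma). Their levels scattered over several units in both groups, mmp9 from 6.09 to 9.42 at 1 h against 4.75 to 7.17 in untreated cells.

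Of the other pathways of regeneration, Wnt genes had a median change of 0.190 and 1 call in 61 (1.64%, against 1.6% of all genes). It was apcdd1l, a gene of a family of Wnt inhibitors, chosen after its values were seen (0.86 ± 0.19) and not called after quantile normalization (adjusted p = 0.086, limma). The Wnt targets lef1 (-0.01 ± 0.25, and 0.19 on the deposited values) and axin2 (0.53 ± 0.22) were not called. Fgf genes had 1 call in each direction among 45 (4.44%, against 1.6% of all genes). The receptor gene fgfr1b had 7.52, 8.16 and 8.43 at 1 h against 6.30, 6.996 and 7.89 in untreated cells, a change of 1.00 ± 0.22. The ligand gene fgf3 had 1.82, 2.69 and 3.98 at 1 h against 3.67, 4.13 and 5.03 in untreated cells, a change of -1.27 ± 0.30. The arrays of both genes overlapped. Of 40 Notch genes limma called 0, with 7 at an unadjusted p under 0.05, which 18.1% of all genes had.

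**Figure D3:**
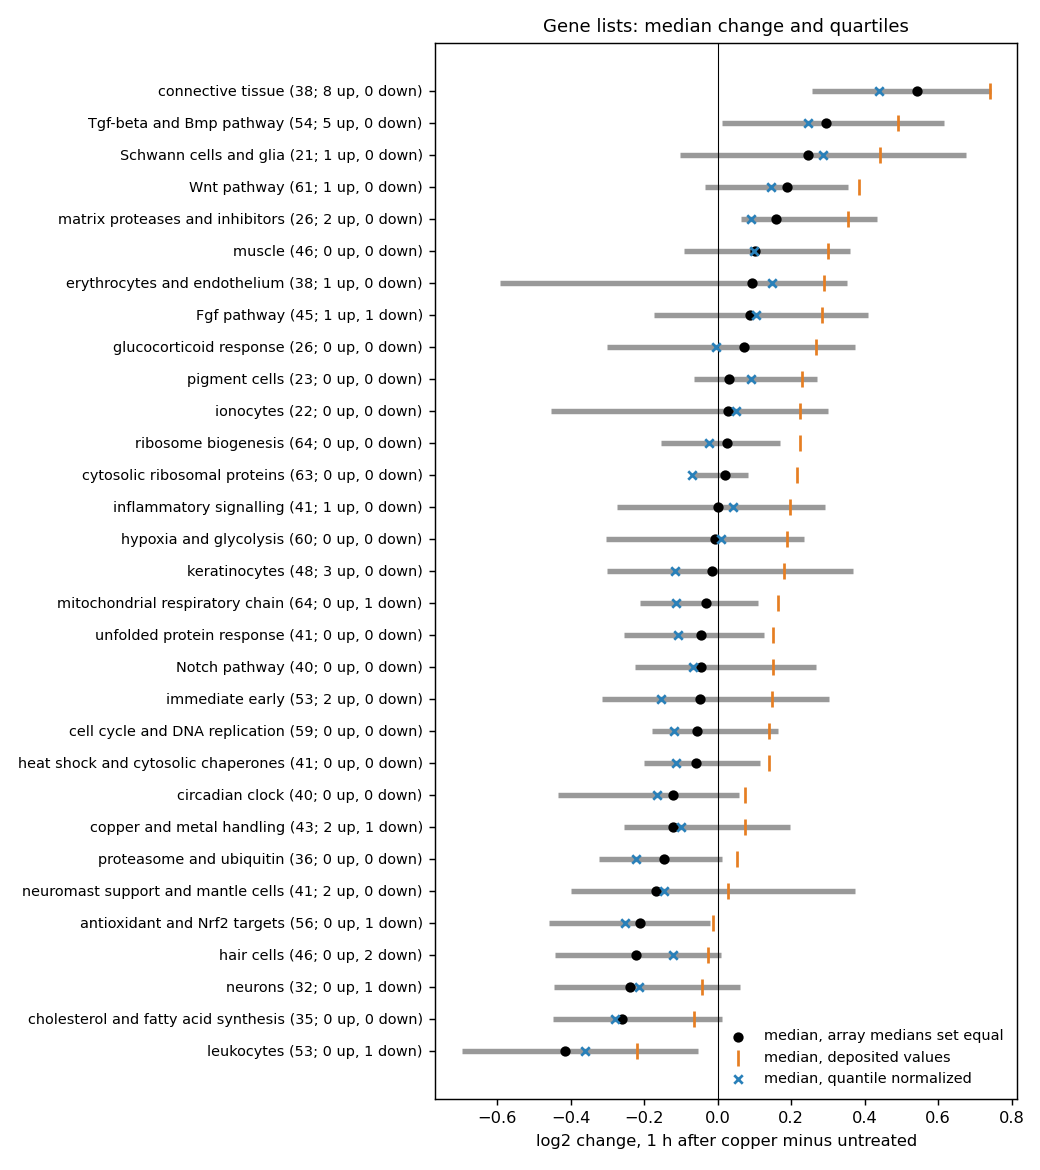
Median change of each gene list (x axis, log2, 1 h after copper minus untreated) with equal array medians (black points), without that step (orange ticks) and after quantile normalization (blue crosses); grey bars run from the lower to the upper quartile of the members with equal array medians, and labels give the members measured and those called. Connective tissue (0.543) is at the top and leukocytes (-0.415) at the bottom, and the deposited values sit to the right throughout.

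Lists of acute stress and early responses held between 0 and 3 called genes each, where 1.6% of all genes were called and 18.1% had an unadjusted p under 0.05. The shares were 3.77% for immediate early genes, 6.98% for copper and metal handling, 1.79% for the antioxidant list and 0 for heat shock and the unfolded protein response. The immediate early genes, which cells switch on within minutes of many stimuli, had a median change of -0.0476 over 53 members (0.149 on the deposited values), with 2 called higher and 0 lower. These were klf2a, a zinc finger factor gene, with 6.88, 7.87 and 8.02 at 1 h against 6.33, 6.72 and 7.26 in untreated cells (0.89 ± 0.20), and, chosen after its values were seen, ccn2a, the connective tissue growth factor gene (1.12 ± 0.23), which was not called after quantile normalization (adjusted p = 0.0616, limma). Fosab was high in both groups, at 11.71, 11.78 and 11.82 at 1 h against 11.74, 11.999 and 12.33 in untreated cells (-0.26 ± 0.13, adjusted p = 0.313, limma). So was egr1, at 11.06, 11.53 and 11.58 at 1 h against 11.41, 11.70 and 12.32 in untreated cells (-0.32 ± 0.17, adjusted p = 0.336, limma). Junba (-0.24 ± 0.15), junbb (-0.10 ± 0.21) and atf3 (-0.19 ± 0.26) were not called either. Junbb and atf3 change sign on the deposited values, to 0.09 and 0.01. Fosab, egr1 and junba lay at percentiles 99.9, 99.8 and 99.6 of mean level. Whether such levels left room to see a rise was not tested.

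Heat shock and cytosolic chaperone genes had 0 calls in 41 in limma (2 at an unadjusted p under 0.05) and a median change of -0.0577, which was 0.139 on the deposited values. The unfolded protein response list also had 0 of 41 (1 at an unadjusted p under 0.05). Hspa8, a constitutive chaperone gene, changed by -0.05 ± 0.12 (0.15 on the deposited values) and the endoplasmic reticulum chaperone gene hspa5 by 0.09 ± 0.21. Both changes were smaller than their SEs.

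Genes that handle copper and other metals had 2 calls higher and 1 lower among 43, and a median change of -0.122 that was 0.0744 on the deposited values. Besides loxl2a, the increase was in steap4, a membrane metalloreductase gene that is also induced in inflammation. It had 5.06, 6.23 and 7.38 at 1 h against 2.66, 4.79 and 5.30 in untreated cells, a change of 1.84 ± 0.41 with overlapping arrays. Its relative steap3, chosen after its values were seen, fell by 1.23 ± 0.29 with array medians set equal and was not called after quantile normalization (adjusted p = 0.0522, limma). The copper pump gene atp7a changed by -0.08 ± 0.16 (0.12 on the deposited values), and the copper-zinc superoxide dismutase gene sod1 by -0.02 ± 0.17 (0.17 on the deposited values). Slc30a1a, a zinc exporter gene that responds to metal, had 6.27, 6.44 and 6.58 at 1 h against 6.6, 6.88 and 7.18 in untreated cells. Its arrays did not overlap, but the change of -0.46 ± 0.13 missed the threshold (adjusted p = 0.0795, limma).

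The antioxidant and Nrf2 target list, which covers the usual response to oxidants, had 0 called higher and 1 lower among 56. That gene was gpx1b, a glutathione peroxidase gene, with 3.77, 4.22 and 4.56 at 1 h against 4.62, 4.84 and 5.60 in untreated cells (-0.85 ± 0.19). The median change of the list was -0.210, and 44 members had a negative change. On the deposited values the median was -0.0137. Hmox1a, the heme oxygenase gene, changed by -0.05 ± 0.25 with array medians set equal and by 0.15 on the deposited values.

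Among inflammatory signalling genes, 1 of 41 was called (2.44%, against 1.6% of all genes), steap4. Il1b, the interleukin 1 beta gene, ranged widely in both groups, with 4.45, 6.42 and 7.95 at 1 h against 5.41, 6.87 and 7.49 in untreated cells (-0.30 ± 0.48). Stat3 changed by 0.35 ± 0.23 and its target socs3a by -0.31 ± 0.42, and neither was called. The SE of il1b was above that of every called gene (0.121 to 0.447), so its change was poorly measured.

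Growth and metabolism lists held 0 or 1 call each, where 1.6% of all genes were called and 18.1% had an unadjusted p under 0.05. Limma called 0 of 59 cell cycle genes (4 at an unadjusted p under 0.05), 0 of 63 ribosomal protein genes (2), 0 of 64 ribosome biogenesis genes (6), 0 of 36 proteasome genes (5), 0 of 60 hypoxia and glycolysis genes (11) and 0 of 35 genes of cholesterol and fatty acid synthesis (4). The replication gene pcna changed by -0.17 ± 0.16 (0.03 on the deposited values) and the cyclin D1 gene ccnd1 by 0.27 ± 0.16. In the respiratory chain 1 of 64 was called, ndufb9 of complex I, chosen after its values were seen (-0.78 ± 0.17) and not called on the deposited values (adjusted p = 0.0629, limma). The clock list had 0 of 40 (9) and the glucocorticoid list 0 of 26 (5). The light-responsive clock genes per1b (-0.06 ± 0.44, and 0.13 on the deposited values) and per2 (-0.50 ± 0.25) were not called.

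Markers of the cell types that the sort could hold were set beside these results. Leukocyte genes had 42 of 53 members with a negative change and a median of -0.415, with 0 called higher and 1 lower (1.89%, against 0.54% of all genes). That was mpeg1.1, a macrophage gene chosen after its values were seen, with 1.97, 3.07 and 3.72 at 1 h against 3.74, 4.32 and 6.00 in untreated cells (-1.49 ± 0.34). After quantile normalization it was not called (adjusted p = 0.0551, limma). The list mean overlapped, at 3.473 to 4.693 at 1 h against 4.1 to 5.17 in untreated cells.

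Hair cell genes had 0 of 46 called higher and 2 lower (4.35%, against 0.54% of all genes), with a median change of -0.223. Tekt3, a gene of ciliary tektin, had 3.04, 3.42 and 3.54 at 1 h against 3.67, 4.21 and 4.92 in untreated cells (-0.95 ± 0.21). Cabp2b, a calcium-binding protein gene, had 2.76, 3.24 and 3.84 at 1 h against 3.64, 4.43 and 5.38 in untreated cells (-1.15 ± 0.26). Both genes were dim, tekt3 at percentile 29.1 and cabp2b at percentile 28.7 of mean level. The list mean was 3.826 to 4.186 at 1 h and 4.188 to 4.47 in untreated cells, so the groups were just apart. This mean includes the 2 called genes, and it was not examined without them. On the deposited values the groups overlapped, at 4.098 to 4.389 against 4.18 to 4.558, and the median change of the list was -0.0269. Pou4f3 itself changed by 0.01 ± 0.15. Hair cells carry a reporter in the pou4f3:GFP line only, and the labels do not give the line of a sample. A difference in line between the groups and an effect of copper on hair cells cannot be told apart here.

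Nerve sheath genes had 1 of 21 called (4.76%, against 1.6% of all genes), mag, and 0 lower, and a median change of 0.246. Of these genes, 15 had a positive change and 6 a negative one, down to -0.992. Their list mean was 5.802 to 5.991 at 1 h against 5.352 to 5.791 in untreated cells, so the groups were just apart. This mean includes mag, whose own arrays did not overlap, and the list was not examined without mag. Neuron genes had 1 of 32 called (3.12%), scg2b, a secretogranin gene, at 2.85, 3.05 and 3.41 at 1 h against 3.60, 3.75 and 4.11 in untreated cells (-0.69 ± 0.15). The neuron list mean overlapped, and so did those of muscle (0 of 46 called in limma, 5 at an unadjusted p under 0.05), pigment cells (0 of 23, 6) and ionocytes (0 of 22, 3). Over all genes, 18.1% had an unadjusted p under 0.05. The red cell and endothelium list had 1 of 38 called (2.63%), rhag, a red cell ammonium channel gene chosen after its values were seen. It had 10.54, 11.44 and 12.16 at 1 h against 9.18, 10.18 and 10.24 in untreated cells (1.28 ± 0.25). After quantile normalization it was not called (adjusted p = 0.0542, limma).

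Keratinocyte genes had 24 positive and 24 negative changes among 48 and a median of -0.0162 (0.180 on the deposited values). There were 3 calls, all higher (6.25%, against 1.06% of all genes). Krt18a.1, a keratin gene of simple epithelia, had 9.29, 9.94 and 10.42 at 1 h against 8.32, 8.53 and 9.11 in untreated cells (1.2 ± 0.20). Krt94 had 6.35, 6.89 and 7.17 at 1 h against 5.34, 5.54 and 6.15 in untreated cells (1.11 ± 0.19). Neither overlapped between groups, and krt18b, chosen after its values were seen, was higher by 0.58 ± 0.14 but not called after quantile normalization (adjusted p = 0.18, limma). The main epidermal keratins krt4 (-0.44 ± 0.25) and krt5 (-0.54 ± 0.36) were not called, and the list mean ran from 7.243 to 9.504 at 1 h, around the untreated range of 7.68 to 8.588. Support and mantle cell genes had 2 of 41 called higher (4.88%), klf2a and ebf3a. The untreated means of both were higher in non-fluorescent than in mantle cells, at 6.80 against 6.01 for klf2a and 6.20 against 4.63 for ebf3a. These levels were not tested against each other. Ebf3a, a transcription factor gene, had 6.69, 7.48 and 7.84 at 1 h against 5.65, 6.13 and 6.95 in untreated cells (1.18 ± 0.22). The median of the list was -0.167 (0.0294 on the deposited values). What part the shares of these cell types have in the changes described above, those of connective tissue genes included, was not tested.

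Leaving out 1 array at a time left the calls of the list members col6a1, twist2, loxl2a, bmpr1ba, krt18a.1, krt94, ebf3a and mag in place. Those of efemp2a, bmp4, tgfbr2a, mmp11b, htra1a, fgfr1b, fgf3, klf2a, steap4, gpx1b, scg2b, tekt3 and cabp2b were each lost without untreated replicate 5, without untreated replicate 6 and without some other arrays.

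**Figure D4:**
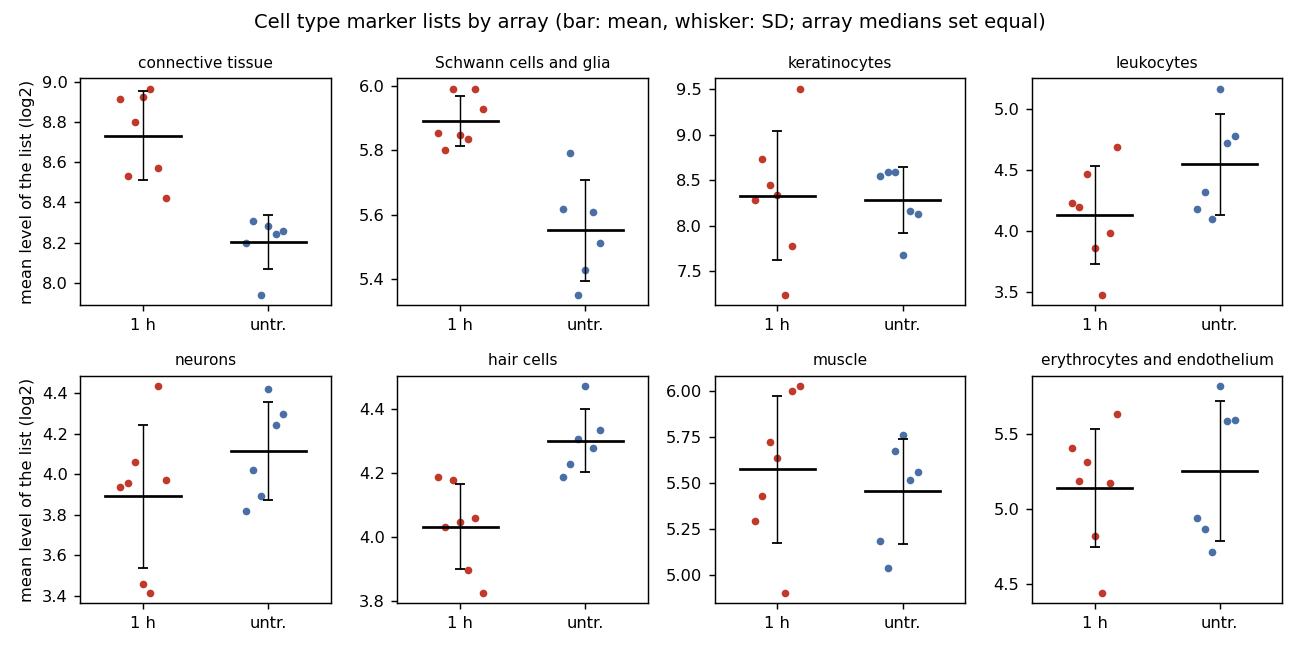
Mean level of 8 cell type marker lists in each array (y axes, log2 with array medians set equal), 1 h after copper (red, n = 7) left of untreated (blue, n = 6), with the mean (bar) and SD (whisker). Connective tissue, nerve sheath and hair cell lists do not overlap between groups, the first pair higher and the hair cells lower at 1 h. The nerve sheath and hair cell lists are just apart. The means of the connective tissue, nerve sheath and hair cell lists include their called genes. The hair cell ranges overlap on the deposited values, and the other 5 lists overlap.

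Mantle cells from the same treatment gave a comparison of the early change between populations. They were tested for the difference of the changes, non-fluorescent minus mantle, which called 205 genes (1.06%), 132 higher (0.685%) and 73 lower (0.379%). Mantle cells themselves had 193 genes called 1 h after copper (1%), 128 higher (0.665%) and 65 lower (0.337%). Of the 204 genes called higher in non-fluorescent cells, 6 were called higher and 1 lower in mantle cells, and of the 104 called lower, 0 were called higher and 1 lower. The largest increases and decreases were chosen for their change in the same non-fluorescent arrays that this test uses, which favours a difference. Among the 12 largest increases, 8 differed between populations by this test, for example cdc42ep3 by 2.17 ± 0.37, myrf by 2.2 ± 0.36 and adamts8a by 1.79 ± 0.30. Cdc42ep3 averaged 3.54 ± 0.54 in mantle cells at 1 h and 3.47 ± 0.36 in untreated ones (SD, n = 4 and 5). Angptl7 was called in mantle cells too, by 0.84 ± 0.17 (adjusted p = 0.0193, limma). Of the 12 largest decreases, 1 differed between populations, ubl3b (-1.58 ± 0.29). As deposited, the mean over all probe sets was 4.447 to 4.482 at 1 h and 4.269 to 4.293 untreated in non-fluorescent arrays. In mantle arrays it was 4.311 to 4.337 at 1 h and 4.269 to 4.286 untreated. Whether an offset of the separately imported copper arrays was alike in both populations was not tested.

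The largest of the 6 positive differences named was in omd, the gene of the matrix protein osteomodulin. It averaged 6.72 ± 1.06 in non-fluorescent cells at 1 h and 4.70 ± 0.62 in untreated ones (SD, n = 7 and 6). In mantle cells it was dim, at 2.81 ± 0.34 at 1 h and 3.67 ± 0.51 untreated (SD, n = 4 and 5), and the changes differed by 2.88 ± 0.59. The fibrinogen-like gene fgl1 (2.69 ± 0.54), twist2 (2.62 ± 0.49), mag (2.60 ± 0.45), the cartilage matrix gene cilp (2.48 ± 0.48) and the talin gene tln2b (2.36 ± 0.57) followed. The signals of fgl1, twist2, mag and cilp were also low in mantle cells at 1 h. For each, replicate 4 was the lowest mantle 1 h array, at 0.957, 2.56, 2.42 and 2.24, and low signals limit these differences. Fgl1, cilp and tln2b were not called in either population alone. Fgl1 changed by 1.28 ± 0.32 in non-fluorescent and by -1.41 ± 0.41 in mantle cells, and cilp by 1.15 ± 0.31 and -1.33 ± 0.37. Tln2b ran from 4.273 to 6.51 in mantle cells at 1 h and from 6.534 to 7.225 in untreated ones. Lower levels in mantle cells at 1 h thus make up part of the differences of these genes.

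Of the 6 largest negative differences named, 5 were in genes called higher in mantle cells and not called in non-fluorescent cells. Klf3, a zinc finger factor gene, averaged 9.12 ± 0.55 in non-fluorescent cells at 1 h and 8.80 ± 0.51 in untreated ones, against 9.49 ± 0.23 and 7.40 ± 0.38 in mantle cells at 1 h and untreated, and the changes differed by -1.77 ± 0.38. The autophagy gene becn1 differed by -2.05 ± 0.40, pck1, the gluconeogenic enzyme gene, by -1.92 ± 0.40, the flippase subunit gene tmem30b by -2.38 ± 0.55, and gsg1l by -2.22 ± 0.41. Chst2b, a sulfotransferase gene, differed by -2.10 ± 0.42 and was called in neither. The count of differences was 62 without mantle 1 h replicate 4 and 100, 89, 122, 107 and 113 without untreated mantle replicates 4, 5, 1, 2 and 3. It was 102, 122 and 127 without untreated non-fluorescent replicates 2, 3 and 5, and 366 and 312 without non-fluorescent 1 h replicates 2 and 7.

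**Figure D5:**
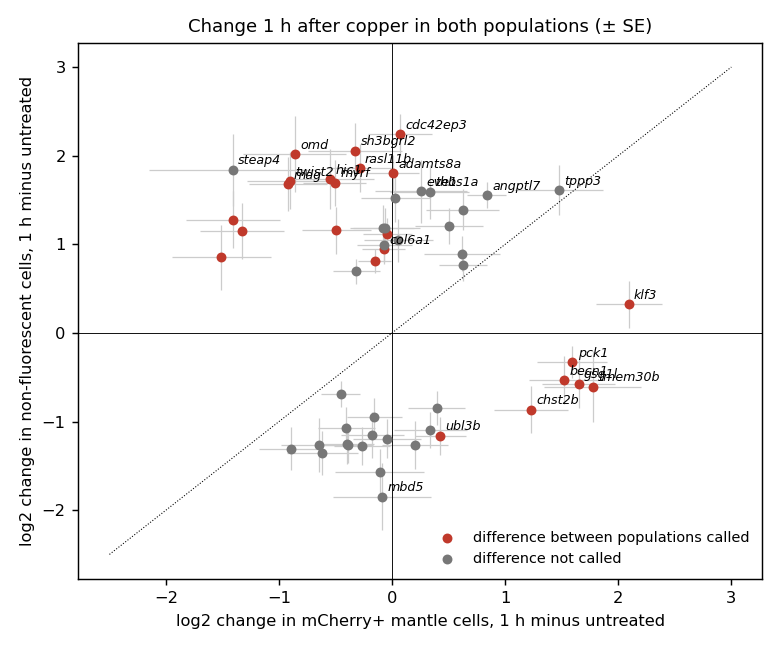
Change 1 h after copper in non-fluorescent cells (y axis) against that in mCherry+ mantle cells (x axis), both log2, 1 h minus untreated, ± SE, for the genes named here that were called in non-fluorescent cells or differ between populations. Red points are genes whose changes differ by the test, and the dotted line marks equal change; cdc42ep3 (2.24 and 0.07) lies far above the line and klf3 (0.32 and 2.09) far below it.

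Later collections gave the course of these genes. The order was untreated, 1 h, 3 h, 5 h and 11 h, and 1 h was tested against each later time within the treated arrays. Cdc42ep3 averaged 5.48 ± 0.41, 7.72 ± 0.48, 4.66 ± 0.60, 4.36 ± 0.49 and 6.79 ± 0.67 over these times (SD, n = 6, 7, 4, 4 and 4). Rasl11b averaged 6.41 ± 0.60, 8.27 ± 0.46, 5.64 ± 0.30, 4.01 ± 0.46 and 6.90 ± 1.21. Both were highest at 1 h and lowest at 5 h. The mean of angptl7 lay above its untreated mean at each time, at 8.88 ± 0.16, 10.43 ± 0.25, 9.92 ± 0.30, 9.38 ± 0.47 and 9.88 ± 0.17. The later times were not tested against the untreated arrays, which were imported apart from the copper arrays. Mag had its highest mean at 3 h, at 6.08 ± 0.56, 7.76 ± 0.64, 8.46 ± 0.63, 7.27 ± 0.68 and 7.74 ± 0.49.

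The largest changes were chosen for their levels in the same 1 h arrays that are tested here against later times. They were also chosen for their levels in the untreated arrays, which favours later means on the same side of the untreated mean. Of the 12 largest increases, 7 were called higher at 1 h than at 3 h, 11 than at 5 h and 0 than at 11 h. Their mean lay above the untreated mean for 8 genes at 3 h, 6 at 5 h and all 12 at 11 h. Of the 12 largest decreases, 6 were called lower at 1 h than at 3 h, 8 than at 5 h and 0 than at 11 h. The mean of these decreases lay above the untreated mean for 4 genes at 3 h, 5 at 5 h and 0 at 11 h. Bdh1, for example, averaged 8.59 ± 0.55 at 3 h and 6.45 ± 0.81 at 11 h. Copper arrays of all times were imported apart from the untreated ones, so an offset from that step and a lasting change cannot be told apart. Over all genes, the test of 1 h against 3 h called 3186 (16.5%), which split into 7.28% higher and 9.26% lower at 1 h. Between 1 h and 5 h it was 2879 (14.9%; 6.62% higher and 8.33% lower). Between 1 h and 11 h it was 12 (0.0623%; 0.0519% higher and 0.0104% lower), with 2707 at an unadjusted p under 0.05 (14.1%). With a block term that sets the first 3 replicates at 3 h and 5 h apart, an alternative taken from earlier results of these data, these counts were 236, 189 and 0. No label names a batch there. Within groups the treated arrays were nearly tied to each other. Their smallest singular value, a measure of independent variation, was 6.42 and the next 41.6. In the 1 h arrays alone these were 48.3 and 54.1. P-values against later times may therefore be too small without the block term, and what ties the arrays was not tested. With the block term, 2 of the 7 increases against 3 h and 4 of the 11 against 5 h stayed called, and of the decreases 2 of 6 and 4 of 8. Without the block term, the count against 3 h was 2034 without 3 h replicate 4, and that against 5 h was 1889, 1829 and 1577 without 5 h replicates 1, 2 and 3.

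Against 11 h, 3 genes were called under all 3 scalings (0.0156%), all higher at 1 h. Nsmfb averaged 4.85 ± 0.20 at 1 h and 3.90 ± 0.25 at 11 h (SD, n = 7 and 4). Lifra, a receptor gene of the leukemia inhibitory factor family, averaged 5.91 ± 0.22 at 1 h and 4.84 ± 0.23 at 11 h. Efna2b, an ephrin ligand gene, averaged 5.90 ± 0.43 at 1 h and 4.44 ± 0.16 at 11 h. Of these, nsmfb was also higher at 1 h than in untreated cells (0.81 ± 0.14), and the other two were not called in that comparison. The calls against 11 h were unstable: the count was 0 without 3 h replicate 4, 5 h replicate 4 or 11 h replicate 2, and 74 and 63 without 1 h replicate 7 and 11 h replicate 4.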

How the data were processed

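Cells were sorted from larval skin and their RNA hybridized to Affymetrix-type arrays of 75212 probe sets. The deposited values were taken as log2 signals. The submitters' processing notes name RMA and Partek 6.6. No source gives the base of the logarithm, and base 2 is taken from RMA's usual output and the range (-1.29 to 15.05, 0 missing). Per the series' design text, the authors left out a few samples that failed to cluster and imported the copper arrays separately. The genome build is not given in the sources used here, and no coordinates were used. Signal over background was not used here. Precision is limited by how many arrays each group holds.

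Of the probe sets, 20806 had 1 gene symbol in the platform annotation, 855 had several and 53551 none listed. For 20323 the Entrez ID was found in RefSeq, which changed 1 symbol. For each of 19260 genes (2344 with placeholder symbols, counted but not named) the probe set with the highest mean over all arrays was used, and other probe sets of the 1365 genes with several entered an alternative. Array medians over these genes were set equal, with 4.835 added back. Each gene was fitted by lmFit and eBayes of limma 3.58.1 in R 4.3.3, tested on simulated data, with Benjamini-Hochberg adjustment over all genes and a threshold of 0.05. The comparison of 1 h with untreated used those 13 arrays, the difference from mantle cells 22 arrays, and the later times the 19 treated non-fluorescent arrays. Comparisons with 1 h share its arrays.

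Same-numbered treated and untreated arrays did not deviate together (r = -0.11, 0.074, -0.068, -0.21, -0.081 and 0.017 for numbers 1 to 6), so the numbers were not taken to pair samples.

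The genes named were up to 12 per direction with the largest change, called under 3 scalings (medians set equal, deposited, quantile) with arrays that do not overlap; up to 3 such called members per list without the overlap condition; a set chosen whether called or not; and up to 6 per direction against mantle cells and against 11 h. The comparison, the genes and the 31 lists were chosen with earlier results of these data known. A further list is not reported here. Alternatives were other scalings, fits, variance moderation, array weights, probe set choice, filters, thresholds, blocks and leaving out arrays.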

Additional observations from a re-analysis of the deposited data

Results flagged for a closer look

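In the named genes, 13 single arrays stood apart from the rest of their group by Dixon's test at the 95% level, among 138 groups of values examined, where chance flags about 1 in 20 groups. At 1 h after copper these were egr1 (replicate 5, 11.06), junba (replicate 6, 11.05), krt5 (replicate 5, 8.833), pecr (replicate 1, 2.626) and pou4f3 (replicate 3, 4.59). In untreated cells they were bmpr1ba (replicate 3, 4.389), cep192 (replicate 3, 6.495), junbb (replicate 3, 10.53), pecr (replicate 3, 5.548), prorsd1 (replicate 3, 6.511), eve1 (replicate 4, 3.922), loxl2a (replicate 4, 8.56) and mbd5 (replicate 2, 8.72). Untreated replicate 3 was the array concerned in 5 of the 8 untreated cases.

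Among mean levels of gene lists, 5 of 62 groups held such an array. They were the glucocorticoid list (1 h replicate 6, 6.746), ribosomal proteins (1 h replicate 3, 10.53), connective tissue (untreated replicate 3, 7.94), the antioxidant list (untreated replicate 3, 6.617) and the copper and metal list (untreated replicate 4, 5.759).

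For 23 named genes the change in non-fluorescent cells differed from that in mantle cells by the test of the difference. Of these, omd, fgl1, twist2, mag, cilp, tln2b, tmem30b, gsg1l, chst2b, becn1, pck1 and klf3 were named for a call in this same test. The others were named for changes that use the same non-fluorescent arrays, which favours a difference. The count of 23 therefore follows in part from how genes were named and does not show how common such differences are. The differences, non-fluorescent minus mantle, were 2.88 for omd, 2.69 for fgl1, 2.62 for twist2, 2.6 for mag, 2.48 for cilp, 2.38 for sh3bgrl2, 2.36 for tln2b, 2.28 for hic1, 2.2 for myrf, 2.17 for cdc42ep3, 2.15 for rasl11b, 1.79 for adamts8a, 1.65 for mmp11b, 1.16 for krt94, 1.02 for col6a1 and 0.964 for nsmfb. They were -2.38 for tmem30b, -2.22 for gsg1l, -2.1 for chst2b, -2.05 for becn1, -1.92 for pck1, -1.77 for klf3 and -1.58 for ubl3b.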

How the results depend on the processing

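None of the 43 named genes called in non-fluorescent cells at 1 h changed direction under any alternative. They were named for calls in the same direction under 3 scalings, which fixes or favours this outcome, so it is no measure of stability. Of these genes, 25 stayed called whichever array was left out. Untreated replicates 5 and 6 decided the most calls (18 and 17 genes lost without them). The 308 calls against untreated became 1452 on the deposited values, 959 with all 42 arrays, 1038 with array weights, 537 with all 25 non-fluorescent arrays, 155 without variance moderation, 202 with dim genes left out, 19 at an adjusted p below 0.01, 153 with a change of at least 1, 112 with a replicate block, 1 with untreated replicates 2 to 4 only, 125 with untreated replicates 5 and 6 averaged (chosen after seeing the data), and 111 to 463 with 1 array left out. The 205 differences from mantle cells became 367 on the deposited values, 130 after quantile normalization, 106 without moderation, 432 with array weights and 15 at 0.01, and 62 to 366 with 1 array left out; the replicate block gave 145. Against 3 h (3186), the counts were 1970 with dim genes left out, 1259 at 0.01, 1194 with the replicate block and 236 with the block for 3 h and 5 h (2034 to 3429 with 1 array left out). Against 5 h (2879) they were 4548, 1869, 1053, 1062 and 189 with array weights, dim genes left out, 0.01, replicate block and the 3 h and 5 h block (1577 to 3072). Against 11 h (12) they were 3 after quantile normalization, 418 with all 42 arrays, 29 without moderation, 0 with array weights, 3 with dim genes left out, 0 at 0.01, 1 with the replicate block and 0 with the other block (0 to 74). The causes were not tested; fewer genes or arrays enter some of these. Low signals limit the lower genes most, since 69 of 104 lie below the median.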

Other observations

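The genes described here were called under all 3 scalings in non-fluorescent cells 1 h after copper against untreated. They were picked from the calls after their values were seen, with no count of similar genes that were not called, so they stand as single genes. The gene ptges, whose enzyme makes prostaglandin E2, had a lowest, median and highest level of 6.03, 7.07 and 7.41 at 1 h against 4.64, 5.36 and 6.17 in untreated cells, a change of 1.41 ± 0.27 (adjusted p = 0.0203, limma). The prostaglandin receptor gene ptger4b had 4.94, 5.43 and 5.98 at 1 h against 4.11, 4.32 and 4.55 in untreated cells, a change of 1.13 ± 0.16 (adjusted p = 0.00687, limma). Only the second had no overlap between the groups, and the receptor gene ptger3 had changed the other way, by -1.35.

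Transcription factor genes picked in this way were msc (1.85 ± 0.39), osr1 (1.78 ± 0.37), alx4b (1.29 ± 0.27), wt1a (1.19 ± 0.21) and foxc1a (1.06 ± 0.25). Wt1a had 5.85, 6.44 and 7.01 at 1 h against 4.81, 5.17 and 5.63 in untreated cells, with no overlap. The matrix protein genes chad and prelp, of small leucine-rich repeat proteins, changed by 1.57 ± 0.36 and 1.19 ± 0.27 with overlapping arrays.

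Untreated replicates 5 and 6 were closer to each other than any other pair of untreated arrays (SD of their difference 0.25 over the tested genes, r = 0.99, the next closest pair 0.38). The labels give them as separate samples.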
